A study of Mus musculus with 8 samples.

Results

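The subject is a group of 9 genes listed as genes of differentiating spermatogonia, namely *Kit*, *Sohlh1*, *Sohlh2*, *Dmrt1*, *Dmrtb1*, *Ccnd2*, *Ccnd1*, *Dnmt3b* and *Uchl1*. They were taken by gene symbol from the 55357 genes of the deposited table, and all 9 were among the 20187 genes that passed the expression filter, a TPM (the abundance of transcripts relative to all transcripts of a library, a level per transcript length) of at least 1 in at least 1 library. Germ cells came from the testes of 8 C57BL/6 males at 15 days after birth, with 1 non-stranded poly(A) library per mouse. The 4 control mice were *Mgat2*[F/F] and carried no Cre transgene. The 4 cKO mice were *Mgat2*[F/F]:*Stra8*-iCre, so both groups had floxed *Mgat2* alleles, and an effect of the transgene cannot be told apart from that of the deletion. *Stra8*-iCre is driven by the promoter of *Stra8* and acts in spermatogonia soon after birth, whereas *Mgat2* is left intact by design in Sertoli, Leydig and other somatic cells. *Mgat2* encodes the transferase that makes complex N-glycans out of hybrid ones.

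In the mouse testis, undifferentiated spermatogonia respond to retinoic acid by switching on the receptor tyrosine kinase KIT, whose ligand is displayed by Sertoli cells. They then divide several times and enter meiosis. SOHLH1 and SOHLH2 are basic helix-loop-helix factors that promote this step and bind E-boxes, and the DM-domain protein DMRT1 holds off meiotic entry until spermatogonia are ready. D-type cyclins drive the transition from G1 to S phase, and de novo DNA methyltransferases are active in the same window. Expression of several of these genes is not restricted to germ cells, since *Dmrt1* is also made by Sertoli cells, *Kit* by Leydig cells, and the D-type cyclins by many dividing cells.

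Total expected counts ranged from 12584726 to 15907505 per library, and the lowest count of any of the 9 genes in any library was 320, for *Sohlh1* in control replicate 3. The library of replicate 1 stood apart in either genotype. The summed TPM of 10 pachytene spermatocyte markers was 2379 in control replicate 1 and 652 to 1053 in the other controls, and 813 in cKO replicate 1 against 303 to 360 in the other cKO libraries. Markers of 12 Sertoli cell genes summed to between 7071 and 8846 TPM in control and between 7545 and 8849 TPM in cKO libraries, with the secreted chaperone *Clu* alone at 4162 ± 326 TPM in control and 4348 ± 353 TPM in cKO (SD, n = 4 each). None of the Sertoli genes was at 0 in all libraries. Leydig markers were far lower, at 35.9 to 89.7 TPM in control and 48.6 to 73.8 TPM in cKO for 6 genes summed. The targeted gene, *Mgat2*, had 69.8, 31.8, 64.3 and 59.8 normalized CPM (counts relative to the library total after TMM scaling) in control replicates 1 to 4. In cKO replicates 1 to 4 it had 35.3, 20.1, 37.6 and 16.0 CPM. Control replicate 2 thus lay below cKO replicates 1 and 3. The log2 fold change of *Mgat2*, cKO over control, was -1.05 (SE is the standard error, here 0.36), with a 95% interval from -1.89 to -0.21. The edgeR p of *Mgat2* was 0.021 before adjustment and 0.47 after adjustment over all genes tested. The paper reports germ cells without MGAT2 and without complex N-glycans in cKO testes of the same age as these mice.

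None of the 9 genes passed the threshold of 0.05 between genotypes. Adjusted p-values from edgeR's quasi-likelihood test, taken over all 20187 genes, ran from 0.62 for *Uchl1* to 0.93 for *Dmrtb1*, and 0 of the 9 had an unadjusted p under 0.05. In the same fit 8 genes were called, 0.0396% of those tested, so that 0 of 9 is a share near the background. The share of all genes with an unadjusted p under 0.05 was 8.9%. DESeq2 also called 0 of the 9, where it called 1.5% of all genes (1.41% lower and 0.0892% higher in cKO). As limma-voom and limma-trend on log2(TPM + 1) called 0 of all genes, their 0 of the 9 carries no information about the group. A block for replicate numbers gave 1464 calls, 7.25% of the genes (6.45% lower and 0.802% higher), and again 0 of the 9, though 5 had an unadjusted p under 0.05 in that fit against 17.4% of all genes. Likewise 0 of the 9 were called with replicate 1 as a term in edgeR, where 7.54% of all genes were (6.52% lower and 1.02% higher), or by DESeq2 with the block, where 6.06% were (5.66% lower and 0.401% higher). The smallest adjusted p under the block was 0.076, and with replicate 1 as a term it was 0.068, both for *Kit* (edgeR). The 5 genes with an unadjusted p under 0.05 in the block fit were *Kit*, *Sohlh1*, *Dmrt1*, *Ccnd2* and *Uchl1*, each higher in cKO. The level of 8 genes was somewhat higher in cKO than in control germ cells, and that of *Dmrtb1* was lower. The median log2 fold change of the 9 was 0.16, beside 0.0069 over all genes tested, of which 51.3% were above 0. Marker lists of other cells had medians of 0.20 (macrophage), 0.18 (undifferentiated spermatogonia), 0.17 (peritubular myoid) and 0.08 (Sertoli). Medians below 0 were -0.04 (early meiotic, and also Leydig), -0.17 (endothelial) and -1.67 (pachytene). Without replicate 1 of either genotype the median of the 9 was 0.10 (edgeR, replicates 2 to 4 only), and 7 of 9 were above 0. Without cKO replicate 1 alone the median was 0.04, and *Ccnd1* (-0.073) and *Dnmt3b* (-0.00055) fell below 0 (edgeR). All 9 genes had overlapping groups, where 5.5% of all genes had groups that did not overlap in normalized CPM (all cKO libraries lower in 3.03% and all higher in 2.47%).

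The data limited the size of any difference. For 8 of the 9 genes the 95% interval of the fold change excluded a 2-fold difference in either direction. The tightest intervals were those of *Uchl1*, from -0.03 to 0.35 on the log2 scale, and of *Sohlh2*, from -0.10 to 0.37. Only *Dmrtb1* of the 9 had an interval that admitted such differences, from 0.308 to 2.17-fold. In RNA of a cell mixture, fewer cells of a type and less RNA per cell cannot be told apart.

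**Figure D1:**
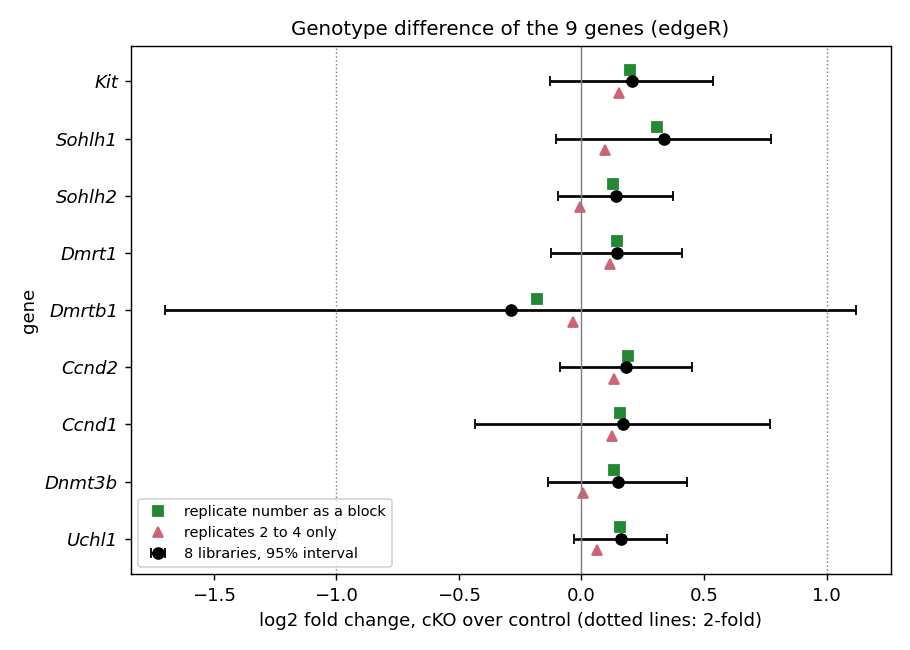
Log2 fold change (cKO over control, horizontal axis) of each of the 9 genes from edgeR. Black points with bars are the fit over 8 libraries with its 95% interval, green squares the fit blocked by replicate number, and red triangles replicates 2 to 4 only. Every black bar crosses 0, and *Dmrtb1* alone spans both dotted lines at 2-fold.

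*Kit* (ENSMUSG00000005672, chromosome 5 of GRCm39, 75735576 to 75817404, forward strand) encodes the receptor of stem cell factor and is the standard surface marker of differentiating spermatogonia. Its normalized expression was 115, 86.6, 81.2 and 99.95 CPM in control replicates 1 to 4 and 144, 98.7, 101 and 97.4 CPM in cKO replicates 1 to 4. Replicate 1 was the highest library of each genotype, and the other cKO values fell within the range of the controls. The means were 95.7 ± 15.2 CPM in control and 110.3 ± 22.3 CPM in cKO (SD, n = 4 each), a log2 fold change of 0.21 (SE 0.15, edgeR adjusted p = 0.71). *Kitl*, the gene of the KIT ligand, was at 64.1 TPM in control and 66.7 TPM in cKO on average, with 61.5 to 73.9 TPM over the 8 libraries. On this per-length scale *Kitl* was more abundant than its receptor gene, which had 32.8 ± 3.89 TPM in control and 37.0 ± 6.15 TPM in cKO (SD, n = 4 each).

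The promoters of 3 genes are shown, each from 250 bases before to 50 bases after the start site of the canonical transcript in GENCODE release M39, read from GRCm39. *Kit* is the defining gene of the group, *Sohlh1* the one with most E-boxes, and *Dmrtb1* the one that varied most between libraries. Capitals mark the E-box, CANNTG, whose reverse complement is the same motif.
Kit promoter, chr5:75735326-75735625, forward strand: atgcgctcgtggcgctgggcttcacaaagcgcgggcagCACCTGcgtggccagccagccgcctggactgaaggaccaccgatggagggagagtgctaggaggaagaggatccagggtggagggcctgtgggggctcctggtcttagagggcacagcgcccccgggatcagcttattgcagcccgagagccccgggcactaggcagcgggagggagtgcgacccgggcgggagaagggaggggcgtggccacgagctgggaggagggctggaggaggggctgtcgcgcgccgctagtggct
Sohlh1 promoter, chr2:25737302-25737601, reverse strand: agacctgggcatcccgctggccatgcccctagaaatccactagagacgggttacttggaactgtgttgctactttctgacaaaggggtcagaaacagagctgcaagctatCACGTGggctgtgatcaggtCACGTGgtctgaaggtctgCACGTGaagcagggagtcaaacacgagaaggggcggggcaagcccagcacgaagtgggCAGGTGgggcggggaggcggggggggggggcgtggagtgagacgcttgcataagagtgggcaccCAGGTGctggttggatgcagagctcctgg
Dmrtb1 promoter, chr4:107541379-107541678, reverse strand: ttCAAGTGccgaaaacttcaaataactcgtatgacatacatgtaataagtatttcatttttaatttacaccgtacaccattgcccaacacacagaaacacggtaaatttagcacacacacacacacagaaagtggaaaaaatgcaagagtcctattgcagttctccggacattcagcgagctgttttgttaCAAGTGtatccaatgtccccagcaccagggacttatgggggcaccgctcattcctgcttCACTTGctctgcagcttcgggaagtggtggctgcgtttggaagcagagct
An E-box was found in 7 of the 9 promoters, as in 70.6% of 21757 promoters of protein-coding genes of the same length, so its presence does not set the group apart. *Ccnd1* and *Uchl1* had no match. *Sohlh1* held 5, of which 3 were the palindrome CACGTG, starting 140, 120 and 101 bases before the start site. That form, which is contained in the E-box motif, was in 7.82% of all promoters and in no other promoter of the 9. *Dmrtb1* held 3 E-boxes and *Kit* held 1, of the form CACCTG. The GC box GGGCGG, searched on both strands, was in 7 of the 9 and in 42.5% of all promoters. *Kit* and *Dmrtb1* also differed in base composition, with 70% and 44.7% G and C against a median of 54.3%, and with 22 and 9 CpG against a median of 11. A match is a description of these letters and not of bound factors.

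*Sohlh1* and *Sohlh2* encode partner transcription factors of the helix-loop-helix family, both required for spermatogonial differentiation. *Sohlh1* (ENSMUSG00000059625, chromosome 2, 25733007 to 25737351, reverse strand) had 24.8, 24.1, 20.2 and 30.2 CPM in control replicates 1 to 4 and 45.7, 26.5, 24.9 and 27.9 CPM in cKO replicates 1 to 4. Only cKO replicate 1 lay outside the control range. Its log2 fold change, 0.34 (SE 0.20, edgeR adjusted p = 0.65), was the largest of the 9 in size, and it was 0.10 with replicates 2 to 4 only (edgeR adjusted p = 0.81). *Sohlh2* (ENSMUSG00000027794, chromosome 3, 55089265 to 55117382, forward strand) had 51.4, 53.9, 57.9 and 55.4 CPM in controls and 74.4, 54.0, 56.9 and 55.7 CPM in cKO libraries. Among replicates 2 to 4, the means of *Sohlh2* were 55.7 ± 2.03 CPM in control and 55.5 ± 1.46 CPM in cKO (SD, n = 3 each). The genotype difference of *Sohlh2*, a log2 fold change of 0.14 (SE 0.11, edgeR adjusted p = 0.72), therefore rested on cKO replicate 1, and without replicate 1 of either genotype it was -0.0070. The balance of the partners was compared within each library, which does not depend on scaling between libraries. *Sohlh1* made up 48.5% ± 4.64 of the TPM of the pair in control and 51.6% ± 3.47 in cKO (SD, n = 4 each; exact permutation test, two-sided, p = 0.37, adjusted over 3 such shares 0.77, smallest p possible 0.029).

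Among 9 listed genes of helix-loop-helix proteins or their germ cell relatives, 8 were tested and 0 were called by edgeR without a block, with 1 unadjusted p under 0.05. The general E-protein partners *Tcf3* and *Tcf12* had log2 fold changes of 0.17 and 0.16. The largest change in size was that of *Tcfl5*, a factor of spermatocytes, with 106 ± 46.1 TPM in control and 66.2 ± 20.0 TPM in cKO (SD, n = 4 each) and a log2 fold change of -0.68 (edgeR adjusted p = 0.63). With the replicate block *Tcfl5* was called (edgeR adjusted p = 6.9e-06). *Neurog3* (0.56) and *Figla* (0.45) followed in size of log2 fold change, neither called by any of edgeR, edgeR with the block or DESeq2. Both were at low levels, with mean CPM in control and cKO of 0.98 and 1.45 for *Neurog3* and 1.7 and 2.4 for *Figla*.

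*Dmrt1* (ENSMUSG00000024837, chromosome 19, 25482860 to 25581693, forward strand) had 199.9, 177, 138 and 179 CPM in control replicates 1 to 4 and 231, 171, 183 and 181 CPM in cKO replicates 1 to 4. Both replicates numbered 1 were again the highest, and control replicate 3 was the lowest of the 8. Its means were 173 ± 25.9 CPM in control and 192 ± 26.7 CPM in cKO (SD, n = 4 each), a log2 fold change of 0.14 (SE 0.12, edgeR adjusted p = 0.74). As *Dmrt1* is made by both spermatogonia and Sertoli cells, its part in either cannot be read from these values.

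*Dmrtb1* (ENSMUSG00000028610, chromosome 4, 107533483 to 107543292, reverse strand), also called *Dmrt6*, encodes a DM-domain factor that acts at the exit from the mitotic program. It was the most variable of the 9 genes. In control replicates 1 to 4 it had 140.2, 43.2, 38.0 and 38.2 CPM, and in cKO replicates 1 to 4 it had 95.5, 33.6, 43.0 and 40.4 CPM. Replicate 1 was 3.52-fold above the mean of the other replicates in control and 2.45-fold above it in cKO. Ratios as high were found in 0.447% (control) and 0.847% (cKO) of the 8502 genes with a mean of at least 20 CPM. Pachytene markers moved in the same way, their summed TPM in replicate 1 being 2.88-fold that of the other controls and 2.41-fold that of the other cKO libraries. The summed TPM of 14 early meiotic markers in replicate 1 was, by contrast, 0.808-fold and 0.854-fold that of the other replicates. The part of the pachytene genes, or of the cells that express them, in the *Dmrtb1* values was not tested. The log2 fold change of *Dmrtb1* was -0.29 (SE 0.59, edgeR adjusted p = 0.93) over 8 libraries and -0.03 with replicates 2 to 4 only, where control had 39.8 ± 2.96 CPM and cKO 39.0 ± 4.86 CPM (SD, n = 3 each). It was 0.42 without control replicate 1 and -0.73 without cKO replicate 1.

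**Figure D2:**
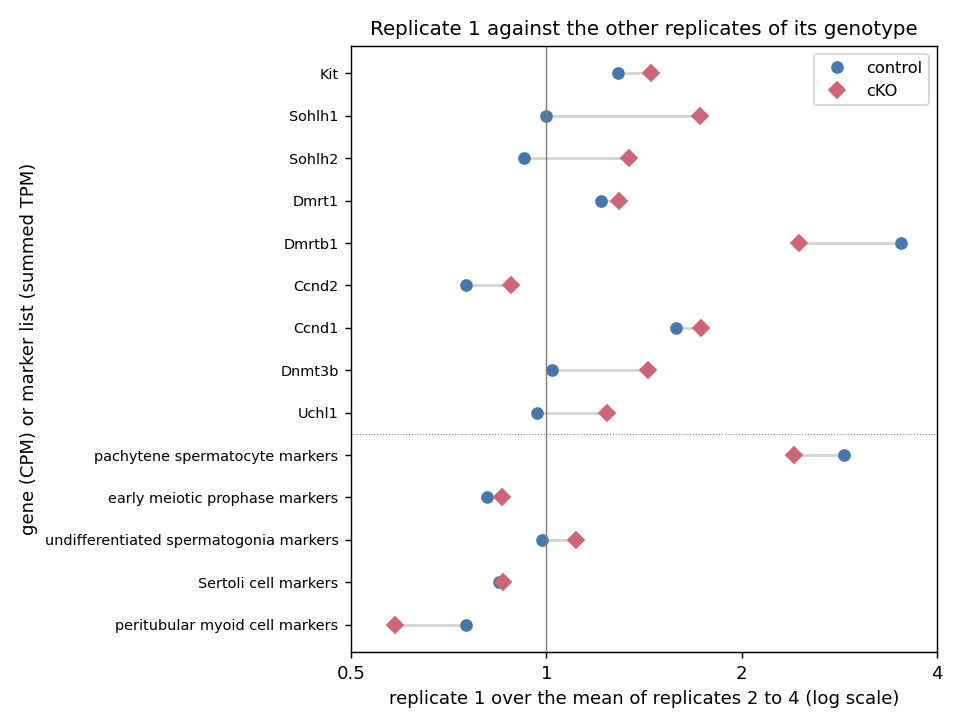
Replicate 1 divided by the mean of replicates 2 to 4 of the same genotype, on a log axis, for normalized CPM of each of the 9 genes and for summed TPM of 5 marker lists. Blue circles are control and red diamonds cKO. *Dmrtb1* and the pachytene markers lie above 2 in both genotypes, whereas *Ccnd2* and the early meiotic, Sertoli and peritubular myoid markers lie below 1 in both.

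Of 9 other DM-domain genes, all 9 were tested and 0 were called by edgeR without a block, with 1 unadjusted p under 0.05. *Dmrtc2*, whose product acts in the pachytene stage, had 54.3 ± 3.47 TPM in control and 39.3 ± 2.17 TPM in cKO (SD, n = 4 each), and every cKO library was below every control library in CPM. Its log2 fold change was -0.45 (edgeR adjusted p = 0.20), and it was called with the replicate block (edgeR adjusted p = 0.0012) and by DESeq2 (adjusted p = 0.0020). For *Dmrtc1c2* and *Dmrta1*, next in size among the relatives with a mean of at least 1 TPM, the log2 fold changes were 0.16 and 0.14, not called by any of these fits. The *Dmrtc1* genes are close copies of each other, between which RSEM could have divided reads.

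*Ccnd2* (ENSMUSG00000000184, chromosome 6, 127102125 to 127129156, reverse strand) encodes cyclin D2, which appears in spermatogonia as they differentiate. It had 49.2, 63.0, 59.3 and 74.7 CPM in control replicates 1 to 4 and 63.5, 79.98, 64.7 and 70.9 CPM in cKO replicates 1 to 4. It alone of the 9 had its lowest value in replicate 1 of both genotypes. The log2 fold change was 0.18 (SE 0.12, edgeR adjusted p = 0.68). *Ccnd1* (ENSMUSG00000070348, chromosome 7, 144483668 to 144493662, reverse strand), the gene of cyclin D1, ran the other way, with 72.2, 49.9, 38.6 and 48.0 CPM in controls and 85.8, 41.5, 53.1 and 54.3 CPM in cKO libraries. Replicate 1 of *Ccnd1* was 1.59-fold (control) and 1.73-fold (cKO) above the mean of the other replicates. Its log2 fold change was 0.17 (SE 0.26, edgeR adjusted p = 0.88), and -0.07 without cKO replicate 1. Of the exonic bases of *Ccnd1*, 48.4% are also exonic in *LTO1* on the opposite strand in GENCODE release M39. The non-stranded libraries cannot separate reads of either strand there. All 8 expected counts of *Ccnd1* were fractional, but the fractions were small beside counts of 610.96 (control replicate 3) to 1292.68 (cKO replicate 1). The part of *LTO1* reads in the level of *Ccnd1* was not tested. Of the exonic bases of *Ccnd2*, 7.97%, 3.95% and 3.83% are also exonic in *9330179D12Rik*, *Gm43126* and *Gm68045*, all on the opposite strand. The part of their reads in the level of *Ccnd2* was not tested either.

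The peritubular myoid markers had a replicate 1 ratio of 0.752 in control and 0.584 in cKO, and the Sertoli markers 0.845 and 0.856, beside 0.750 and 0.883 for *Ccnd2*. The part of these cells in the *Ccnd2* values was not tested. As a share of the TPM of the D-type cyclins, *Ccnd2* made up 27.3%, 34.5%, 31.0% and 32.2% in the controls, replicates 1 to 4, against 21.1%, 39.4%, 29.9% and 34.8% in cKO replicates 1 to 4. The lowest share was in replicate 1 of each genotype. The means were 31.2% ± 3.00 and 31.3% ± 7.81 (SD, n = 4 each), and the difference of 0.07 percentage points was smaller than the spread of either group (exact permutation test, two-sided, p = 1, adjusted over 3 shares 1). *Ccnd3* was at 25.8 ± 5.86 TPM in control and 26.2 ± 2.98 TPM in cKO (SD, n = 4 each), within 1 SD of *Ccnd1* and *Ccnd2* on this per-length scale in either genotype.

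Of 17 genes of the G1 machinery around these cyclins, 0 were called by edgeR without a block, with 1 lower and 2 higher at an unadjusted p under 0.05. The log2 fold change was above 0 in 10 of the 17 and below 0 in 7, with a median of 0.05. The CDK4 and CDK6 inhibitor gene *Cdkn2c* had 37.3 ± 17.5 TPM in control and 20.6 ± 6.11 TPM in cKO (SD, n = 4 each), a log2 fold change of -0.98 (edgeR adjusted p = 0.56). *Rbl1*, the gene of the pocket protein p107, had a log2 fold change of -0.34 (edgeR adjusted p = 0.40), and all of its cKO libraries were below all controls. Both were called with the replicate block (adjusted p = 2.0e-06 for *Cdkn2c* and 0.012 for *Rbl1*, from edgeR), and DESeq2 called neither. *E2f3*, a transcription factor gene of the S phase entry, was at a log2 fold change of 0.31 (edgeR adjusted p = 0.44) and was not called by the block or DESeq2 either. For *Cdk6*, *Rbl2* and *Cdk4* every cKO library was above every control library in CPM. Their log2 fold changes were 0.25, 0.12 and 0.12, and none of these genes was called by edgeR, the block or DESeq2.

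*Dnmt3b* (ENSMUSG00000027478, chromosome 2, 153490861 to 153529650, forward strand) encodes a de novo DNA methyltransferase. It had 47.8, 51.3, 42.0 and 47.3 CPM in control replicates 1 to 4 and 67.5, 49.2, 48.1 and 43.9 CPM in cKO replicates 1 to 4, with cKO replicate 1 the only library above the control range. The log2 fold change was 0.15 (SE 0.13, edgeR adjusted p = 0.75). It fell to -0.00055 without cKO replicate 1. *Dnmt3b* made up 15.6% ± 1.85 of the TPM of the methyltransferase genes *Dnmt1*, *Dnmt3a*, *Dnmt3b* and *Dnmt3l* in control and 16.4% ± 0.492 in cKO (SD, n = 4 each; exact permutation test, two-sided, p = 0.51, adjusted over 3 shares 0.77). The maintenance enzyme gene *Dnmt1* was at 67.9 ± 11.5 and 68.9 ± 8.21 TPM, and *Dnmt3a* at 46.1 ± 8.23 and 45.5 ± 5.87 TPM, in control and cKO (SD, n = 4 each). Of 8 other genes that write or erase DNA methylation, 0 were called by edgeR without a block, by edgeR with the block or by DESeq2, and 0 had an unadjusted p under 0.05. The cofactor gene *Dnmt3l* had the largest log2 fold change in size of these, 0.80 (edgeR adjusted p = 0.72), at a low level of 0.650 ± 0.531 TPM in control and 1.72 ± 1.52 TPM in cKO (SD, n = 4 each).

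*Uchl1* (ENSMUSG00000029223, chromosome 5, 66832748 to 66845009, forward strand) encodes a ubiquitin hydrolase, also known as PGP9.5, that is abundant in spermatogonia and neurons. Its level was by far the highest of the 9 on the per-length scale. It had 276, 273, 273 and 311 CPM in control replicates 1 to 4 and 370.5, 309, 299.7 and 287 CPM in cKO replicates 1 to 4. Control replicate 4 was high among the controls and cKO replicate 1 among the cKO libraries, and the groups overlapped between 287 and 311 CPM. The means were 283 ± 18.5 and 317 ± 37.1 CPM (SD, n = 4 each), a log2 fold change of 0.16 (SE 0.09, edgeR adjusted p = 0.62). Before adjustment the edgeR p of *Uchl1* was 0.091, the smallest of the 9. Its relatives *Uchl5* and *Uchl3* had log2 fold changes of -0.34 and -0.20, and that of *Bap1* was 0.0083. *Uchl4*, below 1 TPM on average in both genotypes, was at -0.49. None of the 4 relatives tested was called by edgeR without a block, by edgeR with the block or by DESeq2, and 0 had an unadjusted p under 0.05. The exons of *Uchl1* share 19.4% of their bases with the antisense gene *Uchl1os* and 11.9% with *Gm73557*, also antisense. The non-stranded libraries cannot separate reads of these genes there.

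**Figure D3:**
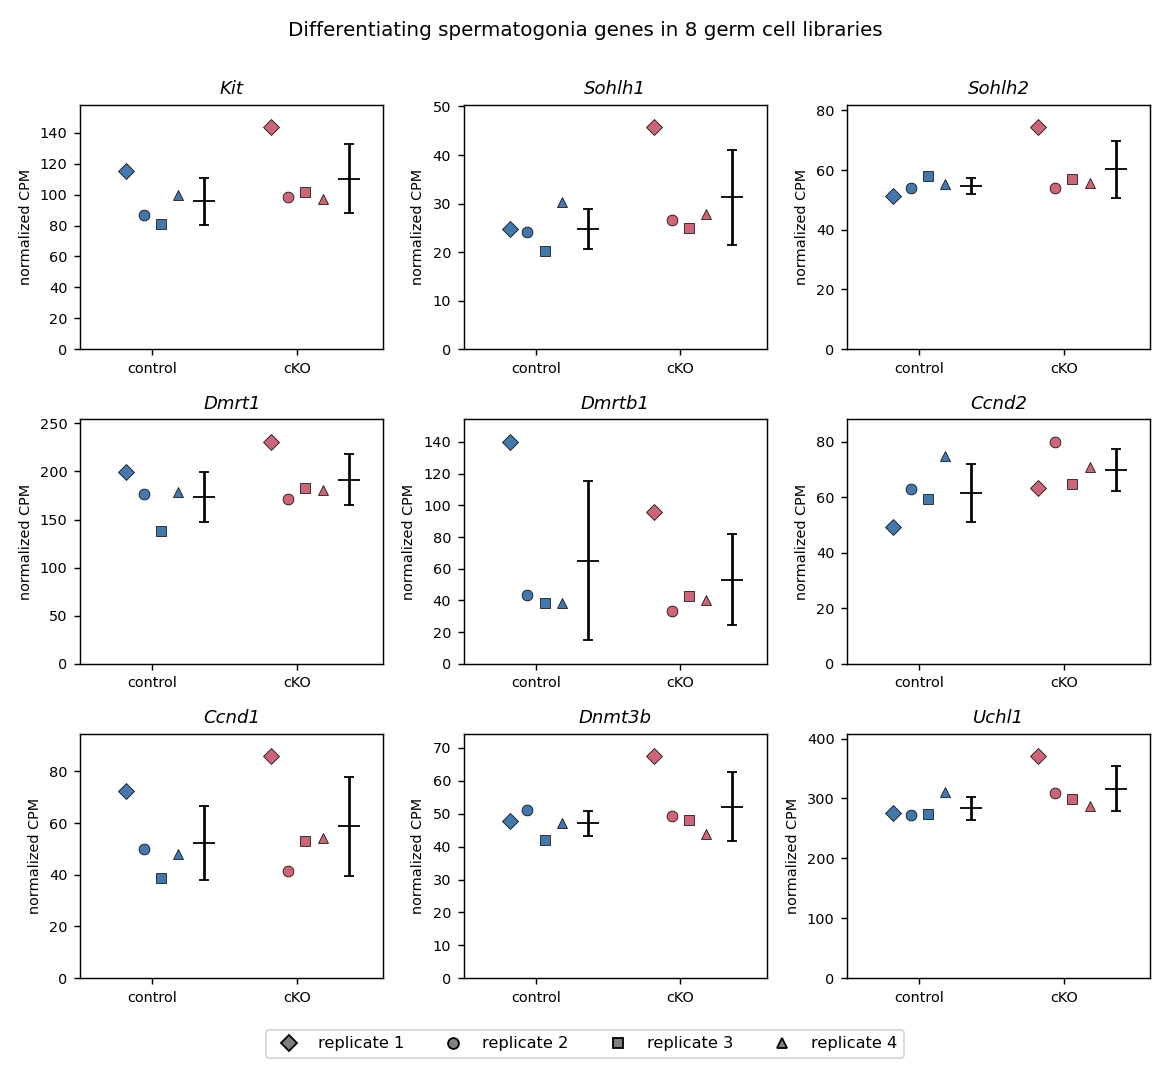
Normalized CPM of each of the 9 genes in the 8 libraries, with axes from 0. Marker shapes give the replicate number, blue is control, red is cKO, and bars are the mean ± SD of 4 libraries. The groups overlap in all 9 panels, cKO replicate 1 is the highest library in 7, and *Dmrtb1* is high in replicate 1 of both genotypes.

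Levels of the 9 genes were then ordered by mean control TPM. *Uchl1*, at 549 ± 48.0 TPM, was followed by *Dmrt1* at 137 ± 19.9 TPM and *Dmrtb1* at 79.3 ± 66.2 TPM (SD, n = 4 each). *Sohlh2* (41.3 ± 2.55 TPM), *Sohlh1* (39.3 ± 7.05 TPM) and *Kit* (32.8 ± 3.89 TPM) formed a middle group, and *Ccnd1* (24.8 ± 6.43 TPM), *Ccnd2* (23.0 ± 4.69 TPM) and *Dnmt3b* (20.9 ± 1.53 TPM) were lowest (SD, n = 4 each). The control ranges of neighbours in this order overlapped except between *Uchl1* and *Dmrt1* and between *Dmrtb1* and *Sohlh2*. The latter pair was nearly tied, with the lowest *Dmrtb1* control at 43.34 TPM and the highest *Sohlh2* control at 43.24 TPM. Their control medians were 47.7 and 42.1 TPM, and their cKO ranges overlapped. The mean of *Dmrtb1* was raised by control replicate 1, at 178.5 TPM. In cKO germ cells the order was the same save that *Sohlh1*, at 48.8 ± 14.3 TPM, stood before *Sohlh2*, at 44.9 ± 6.39 TPM (SD, n = 4 each).

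Several of the 9 genes were high in the same library. In cKO replicate 1, 7 of the 9 had their highest value of all 8 libraries, against 19.3% of the 8502 genes with a mean of at least 20 CPM. The exceptions were *Dmrtb1*, highest in control replicate 1, and *Ccnd2*, highest in cKO replicate 2. In controls, replicate 1 was the highest library for 4 of the 9, *Kit*, *Dmrt1*, *Dmrtb1* and *Ccnd1*. The coefficient of variation among cKO libraries was between 10.8% (*Ccnd2*) and 53.7% (*Dmrtb1*), in each gene above the median of 8.84% for those 8502 genes. Among controls it was between 5.01% (*Sohlh2*) and 77.4% (*Dmrtb1*), around a median of 9.51%. Over the 36 pairs of the 9 genes, Pearson's r of log2 CPM across the 8 libraries had a median of 0.70 and was above 0 in 31. Without replicate 1 of either genotype, over 6 libraries, the median was 0.32 and 25 were above 0. The r of *Kit* with *Sohlh1* was 0.86 over 8 and 0.83 over 6 libraries, and that of *Dmrt1* with *Ccnd1* was 0.92 and 0.84. The r of *Sohlh2* with *Sohlh1* was 0.78 over 8 and -0.51 over 6 libraries. *Dmrtb1* and *Ccnd2* ran in opposite directions, with r of -0.76 and -0.64. All these values share the libraries and their scaling, and are descriptions.

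Among 11931 genes with a mean of at least 5 CPM, those whose log2 CPM followed each of the 9 genes most closely over the 8 libraries had r between 0.95 and 1.00. They were *Chtf18* and *Eef1d* for *Kit* (r = 0.98 each), *Vat1* and *Rcan3* for *Sohlh1* (0.97 each), *Mrpl18* and *Tars* for *Sohlh2* (0.96 and 0.95), and *Paqr7* and *Cul7* for *Dmrt1* (0.99 each). *Dmrtb1* was followed by *Prmt7* (1.00) and *Cdc20* (0.99), *Ccnd2* by *H1f2* (0.98) and *Dock8* (0.97), and *Ccnd1* by *Tonsl* and *Camk2n1* (0.99 each). For *Dnmt3b* they were *Rspo4* and *Rpl19* (0.97 each), and for *Uchl1* they were *Phb* (0.99) and *Mageb4* (0.97). These were the highest of many values over few libraries, and are descriptions.

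The files allow a further look at transcripts, because the expected count divided by the TPM of a gene is proportional to the effective length of the transcripts that RSEM assigned. After scaling to 166 single-transcript genes, this relative length varied by a median of 1.01-fold between the lowest and highest library in those genes (95th percentile 1.11-fold) and by a median of 1.14-fold over 8612 genes. *Sohlh2* and *Sohlh1* were constant, at 1.00-fold and 1.01-fold, but their annotation left little room to vary. GENCODE release M39 gives *Sohlh1* 1 transcript and *Sohlh2* 7 transcripts of 2396 to 2544 bases. *Ccnd2* varied most of the 9, by 1.49-fold, and 8.12% of the 8612 genes varied at least as much. Relative length of *Ccnd2* was 0.828, 0.846, 1.19 and 1.02 in the controls, replicates 1 to 4, against 1.23, 0.956, 0.997 and 0.998 in cKO replicates 1 to 4, where 1 is the geometric mean of the 8. Control replicate 3 and cKO replicate 1 were thus assigned longer transcripts, and GENCODE release M39 gives *Ccnd2* 11 transcripts of 115 to 6330 bases. *Uchl1* varied by 1.43-fold through cKO replicate 4 alone, at 0.761 against 0.945 to 1.09 in the others, and its TPM was highest there, at 759, although its CPM was lowest of the cKO libraries. *Dmrtb1* varied by 1.27-fold and was shortest in replicate 1 of each genotype, at 0.872 in control and 0.918 in cKO. The ranges of control and cKO overlapped in *Ccnd2*, *Uchl1* and *Dmrtb1*. TPM divides by this length and counts do not, and the log2 fold change of *Ccnd2* was 0.06 on the log2(TPM + 1) scale and 0.18 on counts.

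**Figure D4:**
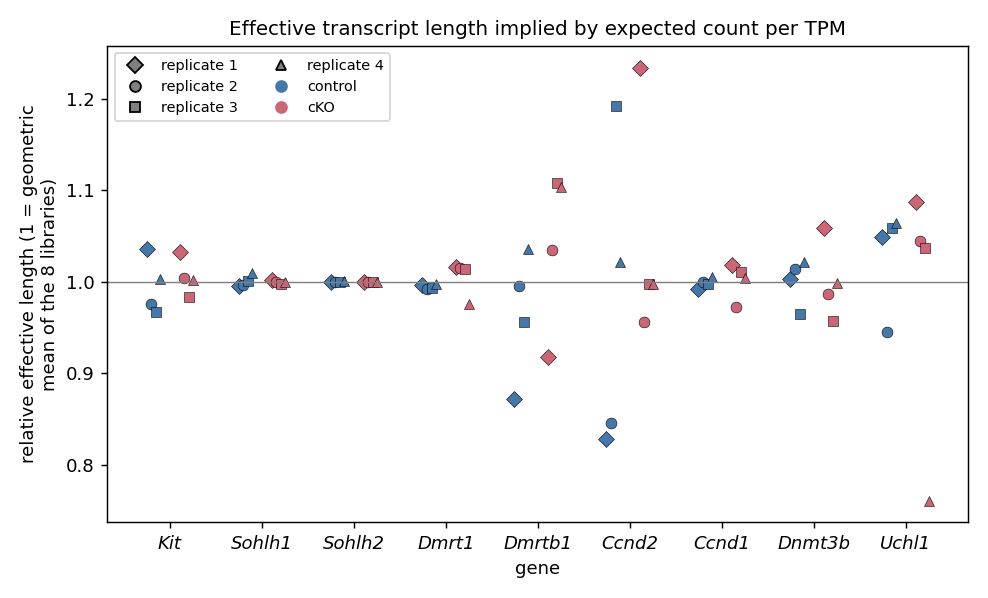
Relative effective length of the transcripts of each of the 9 genes in each library (expected count per TPM, scaled to single-transcript genes; 1 is the geometric mean of the 8 libraries). Shapes give the replicate number, blue is control and red cKO. *Sohlh1* and *Sohlh2* stay at 1, whereas *Ccnd2*, *Dmrtb1* and *Uchl1* spread, from 0.761 for *Uchl1* in cKO replicate 4 to 1.23 for *Ccnd2* in cKO replicate 1. *Sohlh1* has 1 annotated transcript and *Sohlh2* 7 of 2396 to 2544 bases, so their lengths could hardly vary.

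Genes that neighbour the 9 in the pathway were described in the same way. Of 6 other genes of differentiating spermatogonia, all 6 were higher in cKO, 0 were called by edgeR without a block, by the block or by DESeq2, and 1 had an unadjusted p under 0.05. It was *Stra8*, the retinoic acid target that commits germ cells to meiosis, at 149 ± 13.8 TPM in control and 171 ± 8.95 TPM in cKO (SD, n = 4 each; log2 fold change 0.20, adjusted p = 0.54 from edgeR). The retinoic acid receptor gene *Rarg* (0.23) and *Crabp1* (0.14) had log2 fold changes of like size. Of 21 genes of the KIT cascade, 0 were called by edgeR without a block, with 1 lower and 1 higher at an unadjusted p under 0.05, and the median log2 fold change was 0.08. *Cbl*, the ubiquitin ligase gene that turns off activated receptors such as KIT, was lower in every cKO library than in every control library, with 183 and 149 CPM on average and a log2 fold change of -0.30 (edgeR adjusted p = 0.24). It was called with the replicate block (edgeR adjusted p = 9.7e-04) and by DESeq2 (adjusted p = 0.010). *Cbl* was not the gene of largest log2 fold change in this list. That was *Lyn*, a kinase gene, at 0.36 with a mean of 0.823 TPM in control and 1.04 TPM in cKO, followed by *Ptpn6*, a phosphatase gene, at -0.32. After *Cbl* came *Pik3r1*, the regulatory subunit gene of PI3K, at 0.22. Neither *Lyn*, *Ptpn6* nor *Pik3r1* was called by these fits. *Shc1* was separated in the direction opposite to *Cbl*, with every cKO library above every control library in CPM. It had 71.2 CPM in control and 79.8 CPM in cKO on average, a log2 fold change of 0.16 (edgeR adjusted p = 0.53), and was not called by these fits. Of the 21 genes, 14 were higher and 7 lower in cKO.

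Markers of the stages before and after were measured beside the 9. Of 21 markers of undifferentiated spermatogonia, 19 were tested and 0 were called by edgeR without a block, with 1 lower and 2 higher at an unadjusted p under 0.05. The log2 fold change was above 0 in 15 of the 19 and below 0 in 4, with a median of 0.18. Among those with a mean of at least 1 TPM the largest in size were *Utf1* at 0.63, *Cdh1* at 0.59 and *Neurog3* at 0.56, of which *Utf1* and *Neurog3* were not called by edgeR, the block or DESeq2. Their levels were low. Mean CPM in control and cKO was 2.2 and 3.5 for *Utf1*, 5.8 and 8.7 for *Cdh1*, and 0.98 and 1.45 for *Neurog3*. *Id4*, a stem cell marker chosen after its values were seen, went against the direction of most of the list. It had 50.8 CPM in control and 36.4 CPM in cKO on average, and was called with the block (edgeR adjusted p = 0.0068) and by DESeq2 (adjusted p = 0.039). *Cdh1* was called with the block as higher in cKO (adjusted p = 0.045 from edgeR). Early meiotic markers, 14 in number, had a median log2 fold change of -0.04 with 0 called by edgeR without a block and 4 at an unadjusted p under 0.05, and with 1 called lower and 1 higher under the block. Pachytene markers had a median of -1.67, with all 10 lower, 0 called by edgeR without a block (2 at an unadjusted p under 0.05), 7 called lower with the block, and 1, *Piwil1*, called by DESeq2. The log2 fold change of *Piwil1* was -2.05 (edgeR adjusted p = 0.44 without a block). For the 12 Sertoli markers the median was 0.08, with 0 called by edgeR without a block, by the block or by DESeq2 and 0 at an unadjusted p under 0.05. Among the other somatic lists, 0 of 6 Leydig, 0 of 4 peritubular myoid, 0 of 4 endothelial and 0 of 5 macrophage markers were called by edgeR without a block, by the block or by DESeq2, with *Csf1r* of the macrophages the 1 gene at an unadjusted p under 0.05.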

How the data were processed

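Germ cells of 4 *Mgat2*[F/F] control and 4 *Mgat2*[F/F]:*Stra8*-iCre mice were sequenced, 1 library per mouse. The authors aligned reads to mm39 with STAR (2.7.9a) and quantified genes with RSEM (1.3.3) on Ensembl annotation. The authors deposited expected counts, not normalized, and TPM values, scaled by RSEM for transcript length and depth within each library. All 16 value columns belonged to samples of the study. Expected counts were rounded, since 15.5% of those of tested genes were not whole. Genes that reached a TPM of 1 in any sample were compared with edgeR 4.0.16 (TMM factors and the robust quasi-likelihood F-test, without covariates). Adjusted p-values are Benjamini-Hochberg values over 20187 genes, and the threshold was 0.05. Standard errors and 95% intervals came from the F statistic. Shares were compared with exact permutation tests over samples. DESeq2 1.42.0, limma 3.58.1, R 4.3.3, Python 3.11.15, numpy 2.4.6, scipy 1.17.1 and pandas 2.3.3 were used. The tests were tried on simulated data. Total expected counts were 12584726 to 15907505 per library, and 3 counts, taken as a floor, were worth 0.190 to 0.234 CPM, for counting error only. Positions, exons and promoters came from GENCODE release M39 on GRCm39, the same build as mm39 but a later annotation than that of the authors.

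The 9 genes and the gene lists were chosen with earlier results of these data known. Named from the lists were the called genes or the 3 of largest change among those with a mean TPM of at least 1, and for each of the 9 genes the 2 with the highest r. *Kitl*, *Ccnd3*, *Dnmt1*, *Dnmt3a*, *Tcf3*, *Tcf12*, *Id4*, *Clu* and other list genes named beyond that rule were picked after their values were seen. The relative transcript length, the fit with replicate 1 as a term and DESeq2 with the block were added after the data were seen. Alternatives were other tools, normalizations, filters and sample sets.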

Additional observations from a re-analysis of the deposited data

Results flagged for a closer look

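In 7 of the 24 groups of 4 libraries examined, 1 library lay apart from the other 3 by more than the 95% critical value of Dixon's ratio, which chance exceeds in about 1 of 20 groups. cKO replicate 1 was the library apart for *Kit* (144 CPM), *Sohlh1* (45.7 CPM), *Sohlh2* (74.4 CPM) and *Dmrtb1* (95.5 CPM). Control replicate 1 was apart for *Dmrtb1*, at 140.2 CPM, and control replicate 4 for *Uchl1*, at 311 CPM. The *Dnmt3b* share of methyltransferase TPM was lowest in cKO replicate 4, at 15.7%, against 16.6% to 16.7% in the other cKO libraries. The groups are not independent, since they share the same 8 libraries.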

How the results depend on the processing

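0 of the 9 genes were called under any of the 20 alternatives. Of these, limma-voom, limma-trend and filterByExpr called 0 genes of the whole table. So did the fits without control replicate 3, cKO replicate 3 or cKO replicate 4. In such settings 0 of the 9 carries no information about the group. The median log2 fold change of the 9 stayed above 0 and was between 0.04 and 0.22 when each library was left out in turn. It was lowest without cKO replicate 1. The direction of 4 genes depended on replicate 1. Log2 fold changes of -0.0070 for *Sohlh2* (replicates 2 to 4 only), 0.42 for *Dmrtb1* without control replicate 1, and -0.073 for *Ccnd1* and -0.00055 for *Dnmt3b* without cKO replicate 1 had the other sign. With 1 library left out in turn, the log2 fold changes were between 0.05 and 0.31 for *Kit*, 0.09 and 0.45 for *Sohlh1*, 0.02 and 0.19 for *Sohlh2*, 0.04 and 0.22 for *Dmrt1*, -0.73 and 0.42 for *Dmrtb1*, 0.09 and 0.29 for *Ccnd2*, -0.073 and 0.37 for *Ccnd1*, -0.00055 and 0.22 for *Dnmt3b*, and 0.08 and 0.21 for *Uchl1*. The *Ccnd2* share of D-type cyclin TPM, cKO minus control, was between -2.62 and 3.46 percentage points in the same way.

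The number of genes called over the whole table was 8 and moved with the setting. It was 0 with limma-voom, limma-trend and filterByExpr, 17 with library totals alone, 18 with upper-quartile factors, 35 without an expression filter, 302 with DESeq2, 855 with replicates 2 to 4 only, 1223 with DESeq2 and the replicate block, 1464 with the replicate block and 1522 with replicate 1 as a term, and 0 to 32 when each library was left out. The pairing of mice by the replicate numbers of their titles was checked through the correlation of their deviations from the group means. It was 0.54, 0.15, 0.039 and 0.20 for numbers 1 to 4, with a mean of 0.23 against -0.07 for different numbers. Different numbers within replicates 2 to 4 gave 0.047 to 0.20, a like range to the same numbers there. Replicate 1 with another number gave -0.35 to -0.11. The difference of the means thus came from replicate 1, and replicates 2 to 4 showed no pairing by number. The numbers were not taken to pair the samples, and the replicate block left all 9 genes uncalled, with log2 fold changes of 0.20 for *Kit* and -0.18 for *Dmrtb1*. The cause of these movements was not tested.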
